A study of Mus musculus with 16 samples.

Results

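The collagen genes were taken as all rows of the gene table whose symbol has the form Col, a number, a and a number, such as *Col1a1*. The rule found 44 genes among the 55492 in the table. By the structures their proteins build, they were grouped as 11 fibrillar, 9 fibril-associated, 8 basement membrane, 6 beaded filament, 3 network and 4 transmembrane collagens, with 3 others (*Col7a1*, *Col26a1* and *Col28a1*). A mean of at least 10 normalized counts (reads divided by a library's size factor) was needed for a test, and 41 of the 44 passed. *Col2a1*, *Col6a4* and *Col9a1* lay below it, between 0 and 11.5 in every library.

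RNA was sequenced from left ventricles of male C57BL/6 mice aged 8 to 12 weeks, with 16 libraries in 6 groups. The controls were PKM2fl/fl mice, which carry floxed alleles of *Pkm* (pyruvate kinase M), and the PKM2-/- mice were global knockouts made by germline recombination with CMV-Cre, from which the Cre allele was then bred out. All 6 groups carried an engineered *Pkm* allele, either floxed or recombined. Both genotypes were sampled at baseline (2 libraries each), 3 days after sham surgery (3 each) and 3 days after myocardial infarction (MI, 3 each), which was made by tying off the left anterior descending artery for good. Each library is labelled as a heart of its own. The tissue was whole ventricle, so fewer cells of a type and less RNA per cell cannot be told apart.

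The libraries held between 20623769 and 71855101 reads on genes, and the collagen genes took 0.0718% to 0.972% of them. The gene *CT010467.1* took 0.111% to 25.1% of the reads, with 25.1% and 23.0% in PKM2fl/fl MI 1 and 3. Its share also differed between the genotypes before MI. At baseline it was 0.256% to 0.494% in PKM2fl/fl and 7.63% to 8.25% in PKM2-/- hearts. After sham it was 0.111% to 1.39% and 4.14% to 15.0%. After MI the genotypes overlapped, at 1.72% to 25.1% and 2.13% to 17.4%. *Pkm* as a whole gene stood at 7779 to 9602 normalized counts in PKM2fl/fl and 11710 to 14242 in PKM2-/- before MI, and at 9576 to 16113 across the MI hearts. Reads per gene do not separate its deleted exon, so this does not check the labels. The 8 cardiomyocyte markers were present in every group, with *Actn2*, the lowest of them, at a mean of 10105 normalized counts or more.

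Collagens are trimers of helical chains that are exported, trimmed and crosslinked outside the cell. Fibrillar collagens (types I, II, III, V, XI, XXIV and XXVII) form fibrils, and those of the heart come mainly from fibroblasts. Fibril-associated collagens decorate the fibril surface, type IV builds the sheet-like network of basement membranes around muscle cells and capillaries, and type VI forms beaded filaments between the layers. Scar formation after an infarct is known for a rise in fibrillar collagen.

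The promoter sequences of 5 chains are shown because these chains moved in different ways after MI: *Col1a2* and *Col3a1* rose as fibrillar chains, *Col4a1* and *Col4a2* rose less as the main basement membrane pair, and *Col4a4* was lower. Each runs 5′ to 3′ from 250 bases before to 50 after a RefSeq start in GRCm38.p6 (the mm10 build of the files). Capitals mark every match, on either strand, to the TATA motif (TATAAA), the CCAAT motif, the GC box (written GGGCGG) or the motif that AP-1 binds (TGANTCA). *Col1a2* lies at chr6:4505368-4505667 on the forward strand, *Col3a1* at chr1:45311288-45311587 (forward), *Col4a1* at chr8:11312777-11313076 (reverse), *Col4a2* at chr8:11312555-11312854 (forward) and *Col4a4* at chr1:82586800-82587099 (reverse).
Col1a2: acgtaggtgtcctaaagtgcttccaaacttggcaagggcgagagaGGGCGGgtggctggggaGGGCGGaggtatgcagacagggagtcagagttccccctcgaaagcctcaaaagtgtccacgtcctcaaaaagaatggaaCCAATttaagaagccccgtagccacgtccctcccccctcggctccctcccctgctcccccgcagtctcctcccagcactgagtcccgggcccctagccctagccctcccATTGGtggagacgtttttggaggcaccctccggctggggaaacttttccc
Col3a1: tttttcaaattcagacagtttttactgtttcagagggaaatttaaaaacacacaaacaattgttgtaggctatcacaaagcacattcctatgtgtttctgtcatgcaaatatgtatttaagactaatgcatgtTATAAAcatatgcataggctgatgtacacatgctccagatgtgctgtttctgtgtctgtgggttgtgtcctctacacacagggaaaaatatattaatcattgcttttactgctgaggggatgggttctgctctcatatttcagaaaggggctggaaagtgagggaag
Col4a1: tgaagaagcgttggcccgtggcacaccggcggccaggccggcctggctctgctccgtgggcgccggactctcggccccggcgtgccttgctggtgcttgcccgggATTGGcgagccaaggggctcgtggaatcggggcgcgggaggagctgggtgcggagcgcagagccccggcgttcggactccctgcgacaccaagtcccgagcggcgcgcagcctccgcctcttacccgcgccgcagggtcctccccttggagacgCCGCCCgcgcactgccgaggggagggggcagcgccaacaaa
Col4a2: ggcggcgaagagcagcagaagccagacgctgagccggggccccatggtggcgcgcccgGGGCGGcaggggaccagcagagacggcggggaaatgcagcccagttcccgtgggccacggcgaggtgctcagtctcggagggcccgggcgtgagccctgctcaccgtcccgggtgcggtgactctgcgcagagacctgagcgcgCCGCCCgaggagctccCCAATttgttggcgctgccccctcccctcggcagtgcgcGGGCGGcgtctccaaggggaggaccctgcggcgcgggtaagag
Col4a4: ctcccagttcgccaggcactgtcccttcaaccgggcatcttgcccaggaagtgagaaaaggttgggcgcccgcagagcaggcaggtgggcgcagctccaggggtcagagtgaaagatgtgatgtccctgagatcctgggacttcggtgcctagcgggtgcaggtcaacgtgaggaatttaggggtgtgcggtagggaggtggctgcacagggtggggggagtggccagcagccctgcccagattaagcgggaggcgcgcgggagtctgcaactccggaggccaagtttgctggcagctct
*Col4a1* and *Col4a2* are read in opposite directions. The starts used for their windows lie 21 bases apart, and the windows share 78 bases. Over their full RefSeq spans the 2 genes overlap by 85 bases, since *Col4a1* reaches upstream of the start used, as does *Col4a4*. The *Col3a1* window is 37.7% G and C and holds a TATAAA match from position -117. The other windows shown are 61.0% to 74.0% G and C, and the *Col4a4* window holds none of the motifs.

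RefSeq entries were matched for 35 of the 44 genes (38 windows), and those without one include *Col1a1*, *Col4a3*, *Col5a2*, *Col12a1* and *Col14a1*. GGGCGG was found in 60.5% of the collagen windows against 35.7% of all 32851 promoter windows. CCAAT was in 34.2% against 37.4%, TATAAA in 13.2% against 13.6%, and TGANTCA in 2.63% against 7.81%. These are matches of letters, not binding sites.

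Compared per kilobase of transcript, the basement membrane chains led at baseline. Mean normalized counts per kilobase were 1605 for *Col4a1* and 1290 for *Col4a2* in PKM2fl/fl hearts, ahead of *Col3a1* (775), *Col1a2* (464), *Col15a1* (433) and *Col1a1* (417). In PKM2-/- hearts the same chains led, at 1183, 1013, 692, 443, 321 and 377. After sham the per-kilobase level of *Col4a1* was 0.51 to 1.20 times that of *Col3a1* in PKM2fl/fl and 0.59 to 1.31 times in PKM2-/- hearts. After MI the order turned, and *Col3a1* (9844 in PKM2fl/fl, 11556 in PKM2-/-) and *Col1a1* (9056 and 9171) stood above *Col1a2* (6203 and 6672) and *Col4a1* (2926 and 3588). Within each MI heart the per-kilobase level of *Col1a1* was 0.857 to 0.975 times that of *Col3a1* in PKM2fl/fl and 0.682 to 0.887 times in PKM2-/-, with no test.

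Summed over all 44 genes, PKM2fl/fl hearts held 38979 to 49704 normalized counts of collagen at baseline, 45787 to 64232 after sham and 230251 to 242140 after MI. PKM2-/- hearts held 35282 to 39510, 50324 to 69368 and 213232 to 281202. The fibrillar share of these counts was 27.1% to 30.6% at baseline, 38.3% to 56.9% after sham and 69.3% to 71.6% after MI in PKM2fl/fl hearts, and 29.7% to 32.3%, 38.4% to 53.9% and 66.7% to 72.9% in PKM2-/- hearts. The basement membrane share went the other way in PKM2fl/fl hearts, from a mean of 55.6% at baseline to 38.9% after sham and 18.8% after MI. The means in PKM2-/- hearts were 50.3%, 40.9% and 20.03%. The summed counts of the class were nevertheless higher after MI than at baseline (40679 to 46097 against 22294 to 26844 in PKM2fl/fl).

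**Figure D1:**
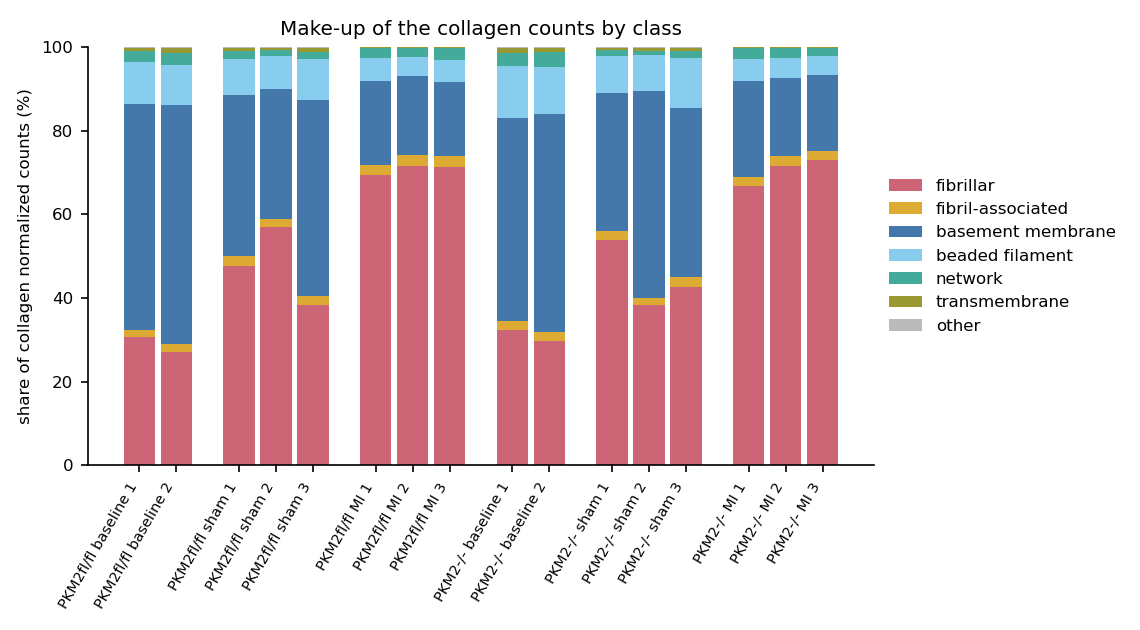
Share (%) of all collagen normalized counts held by each class, with one stacked bar per library. Fibrillar collagens (bottom) hold 27.1% to 32.3% of the counts in the 4 baseline hearts and 66.7% to 72.9% in the 6 MI hearts, with the sham hearts between them and more spread out.

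MI changed most of the collagen genes. Of the 41 tested, 20 rose and 2 fell at least 2-fold in PKM2fl/fl hearts (53.7% called), and 20 rose and 4 fell in PKM2-/- hearts. Calls needed an adjusted p under 0.05 in limma's moderated test on log2(normalized count + 1), and at least a 2-fold change. Among all 20576 genes tested, 23.5% were called in PKM2fl/fl hearts (12.4% higher, 11.1% lower) and 28.8% in PKM2-/- hearts (14.5% higher, 14.3% lower). The median log2 change of the 41 genes was 0.99 in both genotypes, beside -0.0025 and 0.0105 for all genes. A further 3 collagen genes passed the adjusted p but not the fold upwards and 2 downwards in PKM2fl/fl hearts, and 5 and 5 in PKM2-/- hearts, where 50.1% and 56.8% of all genes passed the adjusted p. All MI hearts lay above all sham hearts for 23 of the 41 genes and below for 4 in PKM2fl/fl (30.0% and 29.0% of all genes), and for 25 and 10 in PKM2-/- (31.7% and 30.6%). The genes called higher were the same in both genotypes for 18, and 1 gene, *Col4a3*, was lower in both.

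**Figure D2:**
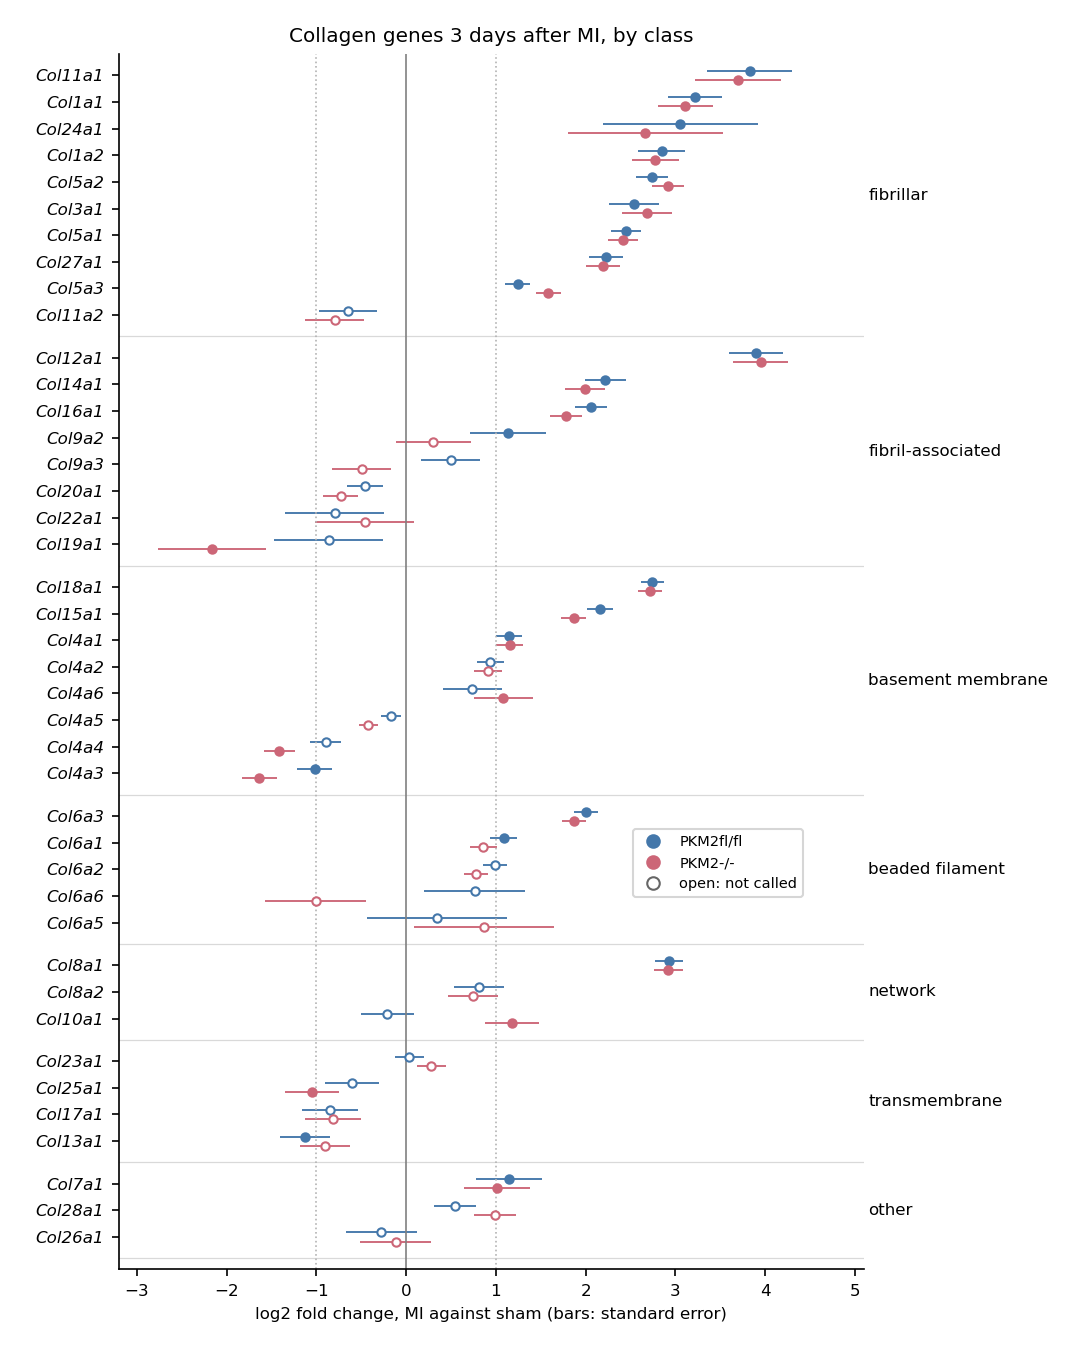
Log2 fold change of each tested collagen gene between MI and sham hearts, with its standard error, in PKM2fl/fl (blue) and PKM2-/- (red). Filled points were called, open points were not, and dotted lines mark a 2-fold change. Fibrillar genes other than *Col11a2* sit between 1.24 and 3.83, while no transmembrane gene was called higher.

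Fibrillar collagens moved as a block, with 9 of 10 tested called higher in each genotype and medians of 2.64 and 2.68 on the log2 scale. *Col1a1*, the α1 chain of type I collagen, was at 5113, 9297 and 4031 normalized counts in the PKM2fl/fl sham hearts and 52851, 57087 and 51164 after MI. PKM2-/- hearts held 9610, 4702 and 5150 after sham and 39028, 58972 and 65148 after MI. Every MI heart lay far above every sham heart, and the change was 9.30-fold in PKM2fl/fl (log2 3.22, SE 0.30, adjusted p 1.11e-06) and 8.64-fold in PKM2-/- (log2 3.11, SE 0.30, adjusted p 9.68e-07).

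*Col1a2*, the partner α2 chain, was at 4316, 6900 and 3307 after sham and 32151, 35616 and 31965 after MI in PKM2fl/fl hearts. The PKM2-/- values were 7244, 4355 and 4250, then 26621, 38847 and 41801. The groups again did not overlap, at 7.19-fold and 6.86-fold. Per kilobase, the ratio of *Col1a1* to *Col1a2* was 0.89 to 0.91 at baseline, 1.07 to 1.22 after sham and 1.45 to 1.49 after MI in PKM2fl/fl hearts, and 0.84 to 0.86, 0.98 to 1.20 and 1.32 to 1.41 in PKM2-/- hearts. In mature type I collagen the α1 chain outnumbers the α2 chain.

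*Col3a1*, the chain of type III collagen, which makes thinner and more elastic fibrils, was at 8632, 14948 and 6485 after sham and 50855, 57437 and 56024 after MI in PKM2fl/fl hearts. Its PKM2-/- values were 14593, 8519 and 7878, then 53660, 70348 and 68885. PKM2fl/fl sham 2 and PKM2-/- sham 1 were the highest sham hearts for *Col1a1*, *Col1a2* and *Col3a1* alike, yet stayed well below every MI heart. The change of *Col3a1* was 5.80-fold and 6.43-fold.

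**Figure D3:**
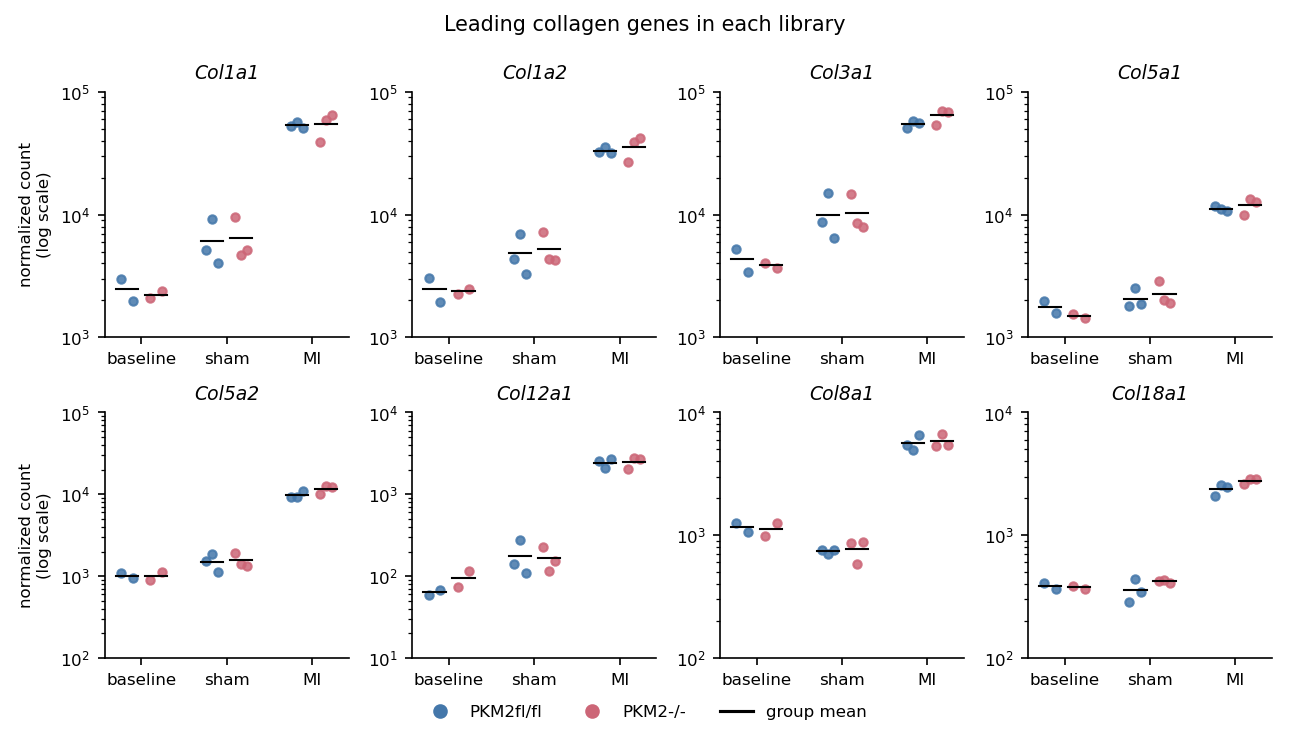
Normalized counts (log axis) of 8 collagen genes in each library at baseline, after sham and after MI, for PKM2fl/fl (blue) and PKM2-/- (red), with bars at the group means. In every panel the 6 MI hearts lie above all sham and baseline hearts, and the genotypes overlap or lie close together after MI.

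Type V collagen seeds fibrils and limits their width. *Col5a1* was at 1800, 2519 and 1867 after sham and 11657, 11101 and 10756 after MI in PKM2fl/fl hearts, and at 2900, 2014 and 1912, then 9973, 13380 and 12750 in PKM2-/- hearts. *Col5a2* was at 1529, 1854 and 1132, then 9371, 9250 and 11094 in PKM2fl/fl, and at 1942, 1391 and 1330, then 10058, 12607 and 12136 in PKM2-/-. Both chains rose in both genotypes with no overlap, *Col5a1* by 5.48-fold and 5.34-fold and *Col5a2* by 6.69-fold and 7.53-fold. *Col5a3*, the less common chain of the type, rose less, by 2.37-fold and 3.00-fold.

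The scarcer fibrillar chains had some of the widest changes. *Col11a1*, best known from cartilage, was at 30.6, 33.9 and 16.2 after sham and 255, 444 and 472 after MI in PKM2fl/fl hearts, and at 25.7, 49.6 and 10.8, then 188, 339 and 537 in PKM2-/- hearts. That is 14.2-fold and 12.9-fold. *Col24a1*, a minor fibrillar chain, was at 39.4, 94.4 and 20.1, then 213, 332 and 648 in PKM2fl/fl, and at 82.0, 23.5 and 34.5, then 109, 307 and 545 in PKM2-/-. It did not overlap between sham and MI, but its call was lost with the smaller pseudocount (adjusted p 0.0557 and 0.0832). In PKM2fl/fl hearts the *Col24a1* call was also lost with *CT010467.1* as a covariate (adjusted p 0.0837). In PKM2-/- hearts it was also lost without sham 2 (0.0621) or without MI 3 (0.0746). *Col27a1* rose by 4.69-fold and 4.57-fold. *Col11a2* was the exception in the class, with a log2 change of -0.65 (adjusted p 0.112) and -0.80 (adjusted p 0.0475, under 2-fold).

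In the limma fit the widest change of any collagen gene in both genotypes was that of *Col12a1*, which encodes a fibril-associated chain that links fibrils to their surroundings. It was at 143, 277 and 108 after sham and 2554, 2070 and 2707 after MI in PKM2fl/fl hearts. The PKM2-/- hearts held 230, 115 and 155, then 2016, 2815 and 2706. The lowest MI heart lay several-fold above the highest sham heart, and the change was 14.9-fold (log2 3.89, SE 0.30, adjusted p 1.96e-07) and 15.4-fold (log2 3.95, SE 0.30, adjusted p 1.31e-07).

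*Col14a1*, another fibril-surface chain, was at 572, 681 and 571, then 2271, 3455 and 2875 in PKM2fl/fl hearts. Values in PKM2-/- hearts were 793, 400 and 548, then 1782, 2643 and 2326. It rose by 4.66-fold and 3.98-fold, and *Col16a1* by 4.17-fold and 3.44-fold. The rest of the class was low. *Col9a2* was called higher in PKM2fl/fl hearts (2.19-fold, adjusted p 0.0348) at 4.11 to 13.9 counts, a call that was lost without sham 1, sham 2 or any 1 of the 3 MI libraries (adjusted p 0.0540 to 0.0953). No filter, total count scaling, the compared groups alone, edgeR without a filter, DESeq2 and *CT010467.1* as a covariate also lost the *Col9a2* call. *Col19a1* fell in PKM2-/- hearts, from 22.5, 35.3 and 96.0 to 6.49, 6.99 and 14.4 (4.48-fold, adjusted p 0.00665). In PKM2fl/fl hearts it was at 40.5, 8.21 and 32.8, then 18.5, 13.9 and 6.40, which overlap (adjusted p 0.255). *Col9a3*, *Col20a1* and *Col22a1* were not called.

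Basement membrane collagens split. *Col18a1* and *Col15a1* encode chains that carry long glycan chains and release fragments named endostatin and restin. *Col18a1* was at 288, 436 and 345, then 2068, 2565 and 2467 in PKM2fl/fl hearts, and at 421, 435 and 410, then 2608, 2857 and 2887 in PKM2-/- hearts. *Col15a1* was at 1410, 1835 and 1945, then 7675, 7700 and 7594 in PKM2fl/fl, and at 2183, 1771 and 2129, then 6836, 7857 and 7461 in PKM2-/-. Both rose without overlap, *Col18a1* by 6.69-fold and 6.58-fold and *Col15a1* by 4.46-fold and 3.65-fold.

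The common type IV chains, which pair as a single network in most basement membranes, rose by less. *Col4a1* was at 7998, 8993 and 9245, then 20640, 19786 and 17639 in PKM2fl/fl hearts, and at 10194, 13292 and 8927, then 22929, 24108 and 24167 in PKM2-/- hearts. *Col4a2* was at 6082, 6702 and 7658, then 14234, 13532 and 11427 in PKM2fl/fl, and at 7734, 10633 and 6961, then 15519, 15872 and 15530 in PKM2-/-. No sham heart reached an MI heart of its genotype for either chain. *Col4a1* rose by 2.21-fold and 2.23-fold. Its PKM2fl/fl call was lost with total count scaling, where it fell just under the 2-fold limit (log2 0.97, adjusted p 0.0269). *Col4a2* passed the adjusted p (0.000124 and 0.000115) at 1.92-fold and 1.88-fold, under the 2-fold limit.

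*Col4a3* and *Col4a4*, chains of a second type IV network best known from the kidney filter, went down. *Col4a3* was at 285, 297 and 381 after sham and 161, 168 and 142 after MI in PKM2fl/fl hearts, and at 423, 342 and 293, then 113, 143 and 86.6 in PKM2-/- hearts. *Col4a4* was at 433, 502 and 570, then 246, 330 and 236 in PKM2fl/fl, and at 571, 441 and 531, then 229, 174 and 176 in PKM2-/-. Each MI heart lay below each sham heart, by 2.03-fold and 3.10-fold for *Col4a3* and by 1.86-fold (adjusted p 0.000469, under the fold limit) and 2.66-fold for *Col4a4*. *Col4a3* in PKM2fl/fl stayed past the adjusted p but slipped under 2-fold without sham 3 (log2 -0.89) or without MI 3 (log2 -0.95). The same held with library quality weights (log2 -0.94) and with *CT010467.1* as a covariate (log2 -0.91). *Col4a4* in PKM2-/- slipped under 2-fold with total count scaling (log2 -0.90).

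*Col4a5*, the remaining chain of that network, which also pairs with *Col4a6*, had log2 changes of -0.17 (adjusted p 0.205) and -0.42 (adjusted p 0.00364), and the sign was not stable, since the alternatives reached 0.021 and 0.092. *Col4a6* was called higher in PKM2-/- hearts (11.3, 13.1 and 14.0, then 21.1, 27.9 and 37.5, or 2.12-fold). *Col4a6* lost this call without MI 3 and with limma-voom (adjusted p 0.0650). In PKM2fl/fl hearts it was at 30.0, 22.6 and 18.6, then 40.2, 26.8 and 56.7, with overlap and an adjusted p of 0.0758.

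**Figure D4:**
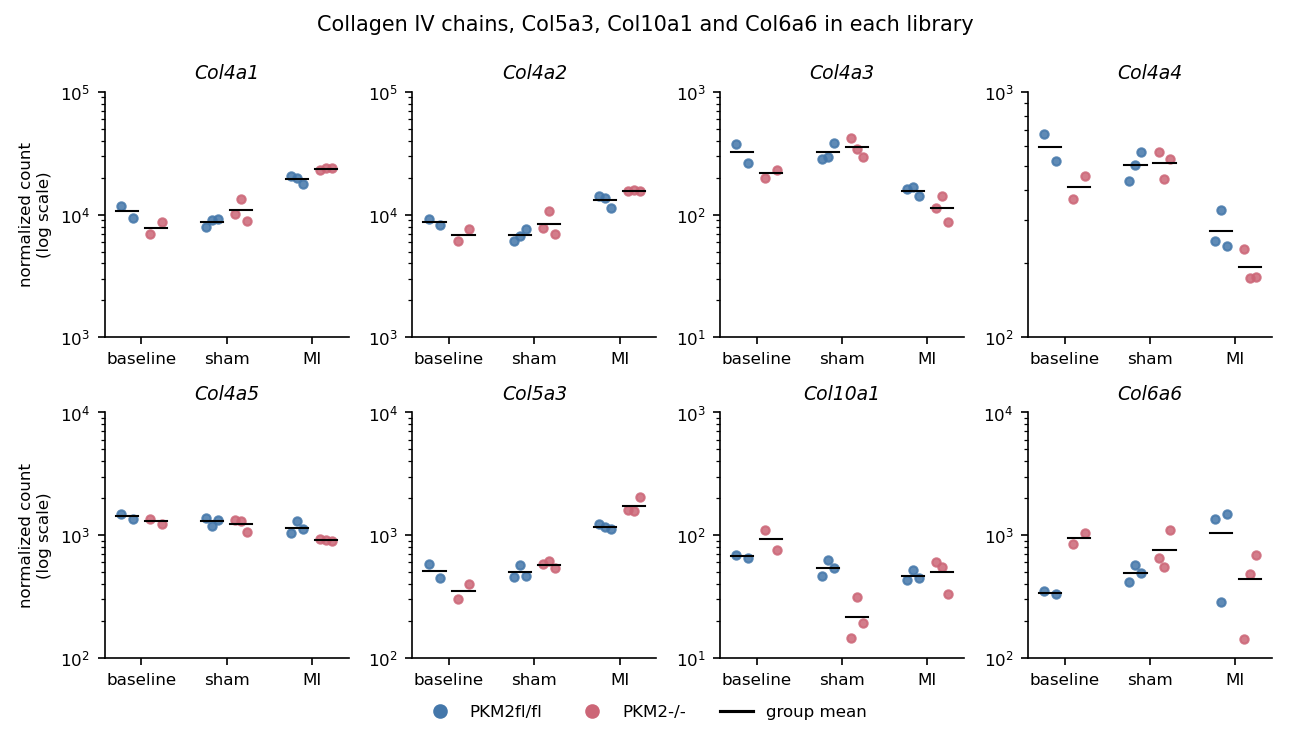
Normalized counts (log axis) of the collagen IV chains *Col4a1* to *Col4a5* and of *Col5a3*, *Col10a1* and *Col6a6* in each library, for PKM2fl/fl (blue) and PKM2-/- (red), with bars at the group means. *Col4a1* and *Col4a2* are higher and *Col4a3* and *Col4a4* lower in every MI heart than in the sham hearts of the same genotype.

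Some of these genes share DNA with others, and the strand setting of the read counting is not given in the sources used here, so reads of overlapping genes cannot be told apart. *Gm15418* overlaps *Col4a1* by 12337 bases and changed by 1.42 and 1.39 on the log2 scale. *C430014B12Rik* overlaps *Col4a3* by 30533 bases, with changes of -0.66 and -0.83. *Gm13372* lies within *Col5a1* (2.34 and 2.29) and *Gm12426* reaches into *Col15a1* (1.87 and 1.90). Each of these 4 noncoding genes moved in the direction of the collagen gene it overlaps. *Gm12963*, which overlaps *Col16a1* by 606 bases, did not pass the test (-0.32 and 0.02), while *Col16a1* rose.

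Type VI collagen forms beaded filaments near the cell surface from α1, α2 and a longer chain such as α3. *Col6a1* was at 1092, 1375 and 1282, then 2997, 2666 and 2305 in PKM2fl/fl hearts, and at 1775, 1319 and 1552, then 2539, 2982 and 2882 in PKM2-/- hearts. *Col6a2* was at 1144, 1410 and 1306, then 2770, 2860 and 2094 in PKM2fl/fl, and at 1707, 1467 and 1707, then 2680, 2931 and 2774 in PKM2-/-. *Col6a3* was at 1313, 1657 and 1325, then 5542, 5518 and 6091 in PKM2fl/fl, and at 2080, 1480 and 1666, then 5826, 6630 and 6488 in PKM2-/-. The MI hearts were higher in all 6 of these series without overlap. *Col6a3* rose most, by 4.01-fold and 3.65-fold.

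*Col6a1* and *Col6a2* lay on the edge of the 2-fold limit in PKM2fl/fl hearts, at 2.12-fold (called) and 1.99-fold (not called), and below it in PKM2-/- hearts, at 1.82-fold and 1.72-fold, all with adjusted p of at most 0.000178. The *Col6a1* call was lost without sham 1 or without MI 1 of PKM2fl/fl, and with total count scaling (log2 0.91). *Col6a5* and *Col6a6*, alternatives for the α3 chain, were not called. *Col6a6* varied widely between MI hearts of 1 genotype, at 1346, 287 and 1486 in PKM2fl/fl and 142, 485 and 697 in PKM2-/-.

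Of the network collagens, *Col8a1*, a short chain found in vessels and valves, was at 757, 706 and 757, then 5449, 4962 and 6608 in PKM2fl/fl hearts. The values in PKM2-/- hearts were 867, 584 and 879, then 5363, 6663 and 5423. It rose by 2.93 and 2.92 on the log2 scale with no overlap, while its partner *Col8a2* passed the adjusted p at 1.76-fold and 1.68-fold. *Col10a1*, known from growth cartilage, was called higher in PKM2-/- hearts (14.5, 31.3 and 19.4, then 60.8, 55.3 and 33.2; 2.27-fold, adjusted p 0.00319), a call lost without sham 1. In PKM2fl/fl hearts it was at 46.4, 62.6 and 54.4, then 43.3, 52.5 and 44.8, with overlap (adjusted p 0.586). *Col10a1* lies wholly within *Nt5dc1*, whose group means were 916 to 1486 normalized counts, so its reads are uncertain.

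No transmembrane collagen, a class whose chains are anchored in the cell membrane, was called higher. *Col13a1*, found at neuromuscular junctions, was at 85.2, 111 and 116 after sham and 55.6, 55.7 and 32.9 after MI in PKM2fl/fl hearts (2.18-fold lower, adjusted p 0.00342), and under the 2-fold limit in PKM2-/- hearts (1.87-fold lower, adjusted p 0.0115). The PKM2fl/fl call was lost without MI 3 (log2 -0.88) and with library quality weights (log2 -0.92). With *CT010467.1* as a covariate the change was weaker still (log2 -0.64, adjusted p 0.191) and was not called. *Col25a1* was called lower in PKM2-/- hearts (61.1, 47.0 and 55.0, then 24.3, 34.3 and 20.2, or 2.07-fold), and not without sham 1 or MI 3. Total count scaling, library quality weights, edgeR without a filter and limma-voom also lost the *Col25a1* call. *Col17a1* passed the adjusted p but not the fold in both genotypes (log2 -0.85 and -0.81), and *Col23a1* did not pass (0.03 and 0.28). Among the 3 others, *Col7a1*, the anchoring fibril chain, was called higher in both (2.22-fold and 2.02-fold). Its call was lost without sham 1 or MI 1 of PKM2fl/fl and without sham 1, sham 3, MI 1 or MI 2 of PKM2-/-. In PKM2-/- hearts the *Col7a1* call was also lost with no filter, the compared groups alone, edgeR with and without its filter, and DESeq2. In PKM2fl/fl hearts total count scaling and *CT010467.1* as a covariate also lost it.

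The 2 PKM2fl/fl MI libraries rich in *CT010467.1* bear on these counts. Without them, 1 MI library was left in that group and 19 collagen genes were called, among them 17 of the 22, with *Col4a3*, *Col7a1*, *Col9a2*, *Col13a1* and *Col24a1* lost. The lone library was assumed to vary like those of the other groups. With all libraries kept and *CT010467.1* fitted as a covariate, 17 of the 22 calls also remained. *Col4a3*, *Col7a1*, *Col9a2*, *Col13a1* and *Col24a1* were again lost, while *Col4a2* and *Col6a2* were gained. In PKM2-/- hearts the covariate left all 24 calls in place.

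Genes that make, trim and crosslink collagen rose beside it. Of 29 genes for folding, processing and crosslinking, 16 rose and 0 fell in PKM2fl/fl hearts, and 18 rose and 1 (*Colgalt2*, a glycosyltransferase) fell in PKM2-/- hearts. The median log2 change of the list was 1.08 and 1.33. *Loxl2* and *Loxl3*, which encode crosslinking oxidases, rose by 3.09 and 2.61 on the log2 scale in PKM2fl/fl and by 2.71 and 2.75 in PKM2-/-. The remaining gene of the 3 with the smallest adjusted p was *Adamts2* in PKM2fl/fl (1.64), which encodes the protease that trims the N-terminal propeptide. In PKM2-/- it was *Bmp1* (1.70), whose protease trims the C-terminal one. Each is given only for the genotype in which it ranked there.

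The breakdown list held 12 genes for collagen breakdown and its control, among them the protease inhibitor genes *Timp1*, *Timp2* and *Timp3*. Of these 12 genes, 6 rose in PKM2fl/fl and 9 in PKM2-/-, and 0 fell in either. *Mmp14*, a membrane-bound collagenase, rose by 2.85 and 2.92, *Mrc2*, an uptake receptor for cleaved collagen, by 1.70 and 1.61, and the protease inhibitor gene *Timp1* by 4.57 and 4.51. Among 8 collagen receptor genes tested, 3 rose in each genotype (*Itga11* by 1.35 and 1.33, *Lair1* by 2.08 and 2.40, *Itga2* by 1.77 and 1.93) and *Itga10* fell in PKM2-/- (-1.46). Of 12 genes of TGF-β signalling, the best known inducer of fibrillar collagen, 6 and 5 rose, among them *Ccn2* (2.42 and 2.16), which encodes a matricellular protein. None of the genes in these 4 lists was called between the genotypes by limma at baseline, after sham or after MI.

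Markers of cell types moved with MI as well, and their part in the collagen changes was not tested. None of the 7 markers of resting fibroblasts rose while *Gsn* fell in both genotypes and *Fbln1* in PKM2-/-, with summed levels of 31286 to 36904 after sham and 17194 to 23677 after MI in PKM2fl/fl hearts. The activated fibroblast markers *Postn*, *Tnc* and *Fn1* rose by 3.82, 6.03 and 4.08 in PKM2fl/fl and 3.59, 5.58 and 3.90 in PKM2-/-, while *Acta2* was called in PKM2fl/fl (1.90) and not in PKM2-/- (0.92). *Cthrc1* was at 0 in every baseline and sham library and stayed near the floor after MI. Its MI means were 0.61 normalized counts in PKM2fl/fl and 0.85 in PKM2-/-. The summed level of these 5 markers went from 3965 to 7354 after sham to 65909 to 101024 after MI in PKM2fl/fl, and from 4152 to 7503 to 62275 to 74531 in PKM2-/-.

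Cardiomyocyte markers fell in 8 of 8 cases in both genotypes, from sums of 1202736 to 1333841 after sham to 237854 to 530490 after MI in PKM2fl/fl, and from 1046660 to 1332929 to 227352 to 294225 in PKM2-/-. Of 8 macrophage and leukocyte markers, 7 rose in each genotype, as did 5 of 5 cell division markers. None of the 6 endothelial markers was called, and 1 of 6 mural cell markers fell in PKM2fl/fl and 3 in PKM2-/-. Of 5 epicardial and mesothelial markers, 0 were called in PKM2fl/fl and 4 rose in PKM2-/- hearts. Their sums were 263 to 394 after sham and 294 to 1090 after MI in PKM2fl/fl. In PKM2-/- hearts they were 256.7 to 701 and 434 to 678. The neutrophil marker *Csf3r* (1 of 4) and the cartilage and valve markers *Sox9* and *Acan* (2 of 5) rose, and the Schwann cell marker *Sox10* (1 of 2) fell, in both genotypes. None of the 3 atrial markers was called. The genotype by MI interaction called 0 of the 20576 genes in limma. Listed genes called in 1 genotype only, such as *Acta2*, *Colgalt2*, *Itga10* and the epicardial markers, were therefore not shown to differ between genotypes.

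Sham surgery was compared with baseline, using the same sham hearts that stood against MI. In PKM2-/- hearts 4 collagen genes rose and 1 fell (2.66% of all genes were called, 2.06% higher and 0.608% lower). *Col1a1* was at 2090 and 2380 at baseline against 9610, 4702 and 5150 after sham (2.76-fold, adjusted p 0.0215). *Col3a1* was at 4048 and 3658 against 14593, 8519 and 7878 (2.58-fold, adjusted p 0.0192). *Col1a2* was at 2248 and 2496 against 7244, 4355 and 4250 (2.16-fold, adjusted p 0.0404). All sham hearts lay above both baseline hearts for these 3 genes.

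*Col11a2* was at 28.0 and 27.5 at baseline against 67.5, 81.0 and 75.5 after sham (2.63-fold, adjusted p 0.0381). *Col10a1* fell from 111 and 75.1 to 14.5, 31.3 and 19.4 (4.25-fold, adjusted p 0.00296), and *Nt5dc1*, in which it lies, fell by 0.67 on the log2 scale (adjusted p 0.0186). *Col5a3* and *Col6a3* passed the adjusted p at 1.67-fold and 1.55-fold. *Col10a1* was called in every alternative run, but the 4 genes called higher depended on single libraries. Without baseline 1, baseline 2 or sham 1 none of *Col1a1*, *Col1a2*, *Col3a1* and *Col11a2* was called. Without sham 2 *Col1a2* and *Col11a2* were lost, and without sham 3 *Col11a2*.

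Other genes moved with sham surgery in PKM2-/- hearts, and their part in the collagen changes was not tested. Of the processing list, *Lox*, which encodes the classic collagen crosslinking oxidase, rose by 2.04 on the log2 scale (adjusted p 0.00128), and it rose by 1.73 (adjusted p 0.0162) in PKM2fl/fl hearts too. In PKM2-/- hearts 2 of 12 breakdown genes rose (*Mmp8* and *Mmp3*), with 3 of 8 macrophage and leukocyte markers (summed levels 4085 to 5671 at baseline, 8173 to 10098 after sham), 4 of 4 neutrophil markers (114 to 160, then 897 to 1146) and 4 of 5 cell division markers. In PKM2fl/fl hearts 0 genes of these 4 lists were called, although the summed neutrophil markers went from 76.1 to 180.5 at baseline to 208 to 1213 after sham. The fibroblast lists had 0 calls in either genotype.

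In PKM2fl/fl hearts 0 collagen genes were called between sham and baseline by limma (0.17% of all genes were), with 14 at an unadjusted p under 0.05 (8.81% of all genes) and a lowest adjusted p of 0.0951. edgeR with its filter and limma-voom also gave 0, DESeq2 gave 4 and edgeR without a filter 7. *Col1a1* was at 2971 and 1972 at baseline against 5113, 9297 and 4031 after sham (2.38-fold, adjusted p 0.160). *Col3a1* was at 5232 and 3391 against 8632, 14948 and 6485 (2.24-fold, adjusted p 0.152). *Col12a1* was at 59.7 and 67.0 against 143, 277 and 108 (2.55-fold, adjusted p 0.123). The groups did not overlap for these 3 genes, as for 14 collagen genes in the higher direction (17.4% of all genes) and 8 in the lower (15.2%). Without sham 3 all 3 were called.

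The difference of the sham effect between the genotypes was tested as well, an alternative added after the values were seen, with 0 collagen genes called in limma (0.0% of all genes, lowest adjusted p 0.462) and 10 at an unadjusted p under 0.05 (6.29% of all genes). edgeR without a filter gave 1 (*Col10a1*), and edgeR with its filter, DESeq2 and limma-voom gave 0. The sham effect of *Col1a1* differed by 0.21 (95% interval -0.81 to 1.23), so the calls in PKM2-/- and not in PKM2fl/fl do not show a difference between genotypes.

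The effect of PKM2 loss on collagen genes was compared in the same way. After MI, 0 of 41 were called by limma between PKM2-/- and PKM2fl/fl hearts (0.413% of all genes were), with 4 at an unadjusted p under 0.05 (17.0% of all genes). edgeR with its filter, DESeq2 and limma-voom also gave 0, and edgeR without a filter gave 1 (*Col6a6*). *Col1a1* differed by -0.01 on the log2 scale (interval -0.66 to 0.63), *Col3a1* by 0.22 (-0.37 to 0.81) and *Col12a1* by 0.03 (-0.61 to 0.68). These intervals leave room for differences in either direction.

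*Col5a3* came closest, at 1232, 1159 and 1129 in PKM2fl/fl and 1609, 1568 and 2060 in PKM2-/- hearts after MI. The groups did not overlap, and the difference was 0.56 (SE 0.14, interval 0.26 to 0.86, adjusted p 0.0659). *Col4a5* was at 1034, 1312 and 1119 against 932, 914 and 902 (-0.33, adjusted p 0.138), also without overlap. In all, 4 collagen genes lay wholly higher and 2 wholly lower in PKM2-/- hearts after MI, where 10.7% and 8.26% of all genes did.

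After sham, 0 collagen genes were called by limma (0.00486% of all genes were), with 4 at an unadjusted p under 0.05 (9.95%). edgeR with its filter and limma-voom gave 0, while DESeq2 and edgeR without a filter each gave 1 (*Col10a1*). *Col10a1* was at 46.4, 62.6 and 54.4 in PKM2fl/fl against 14.5, 31.3 and 19.4 in PKM2-/- hearts (-1.34, SE 0.30, adjusted p 0.108), without overlap. *Nt5dc1* had a difference of -0.32 there.

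At baseline, with 2 hearts per genotype, 0 were called by limma (0.00972% of all genes were) and 5 had an unadjusted p under 0.05 (3.64% of all genes). edgeR with its filter, DESeq2 and limma-voom gave 0, and edgeR without a filter 1 (*Col6a6*). *Col6a6* was at 350 and 330 in PKM2fl/fl and 847 and 1048 in PKM2-/- hearts (1.47, SE 0.69, adjusted p 1.0). *Col5a3* was at 581 and 446 against 301 and 398 (-0.56, SE 0.17, adjusted p 0.954).

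**Figure D5:**
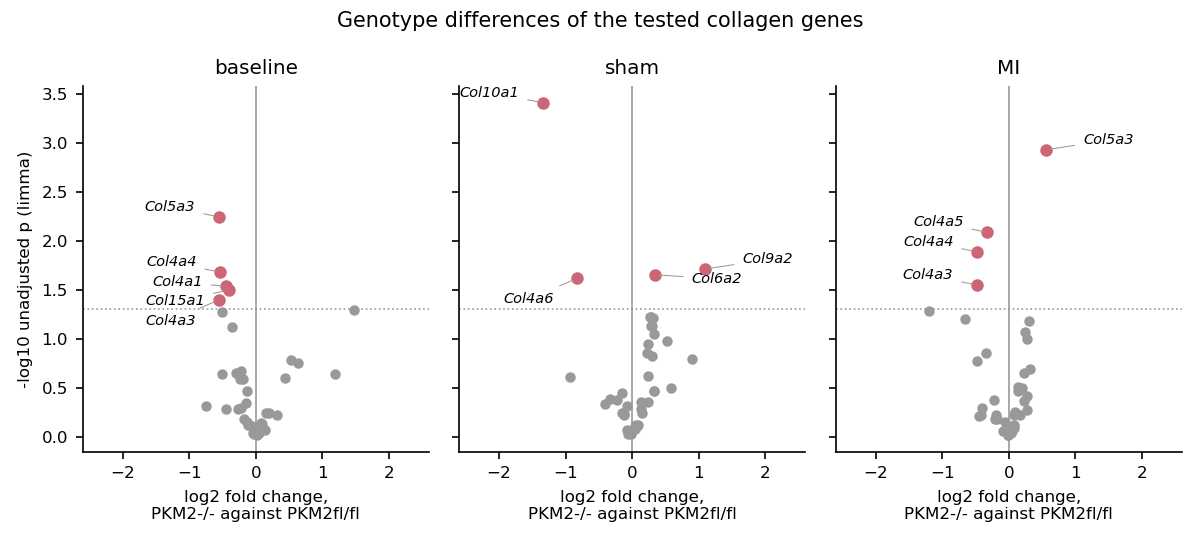
Log2 fold change between PKM2-/- and PKM2fl/fl hearts (horizontal) against -log10 of the unadjusted limma p (vertical) for the 41 tested collagen genes at baseline, after sham and after MI. Red points lie above the dotted line at an unadjusted p of 0.05 (5, 4 and 4 genes), and none of them passed the adjusted threshold of 0.05.

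Whether MI changed collagen genes differently in the genotypes was tested by the interaction term. It called 0 of 41 in limma (0.0% of all genes), with 4 at an unadjusted p under 0.05 beside 8.28% of all genes. edgeR with its filter, DESeq2 and limma-voom gave 0, and edgeR without a filter 1 (*Col6a6*). The smallest adjusted p was 0.438, for *Col10a1* (1.39, SE 0.42, interval 0.49 to 2.28). *Col4a3* and *Col4a4* had differences of -0.61 and -0.52 (the lower adjusted p was 0.588), where a negative value is a stronger fall in PKM2-/- hearts. For *Col1a1* the difference was -0.11 (interval -1.02 to 0.80) and for *Col3a1* 0.15 (-0.69 to 0.98). The change in the genotype effect from baseline to MI, also added after the values were seen, had 0 collagen genes called in limma (0.0243% of all genes) and 4 at an unadjusted p under 0.05 (9.37%), while DESeq2 called 1 (*Col5a3*), edgeR without a filter 2 (also *Col6a6*), and edgeR with its filter and limma-voom 0. The genes called in 1 genotype and not the other were therefore not shown to differ between them.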

How the data were processed

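Left ventricular total RNA was depleted of rRNA and sequenced as paired ends in 16 libraries of 6 groups. After trimming in PRINSEQ, the authors mapped reads with HISAT2 (build mm10), summed them per gene in featureCounts and divided the counts by DESeq2 size factors (versions and strand setting are not given in the sources used here). The deposited signal of each library is therefore a normalized count, and 100.0% of values came back as whole reads within a tolerance of 0.05. The deposited table also holds, in 5 columns, the authors' own log2 fold changes, their errors, Wald scores, p-values and adjusted p-values for the baseline genotype comparison, which were not used, and each gene's overall mean.

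Testing took the genes whose mean reached 10, with limma 3.58.1 (R 4.3.3) on log2(normalized count + 1) in all 16 libraries, with a trend in the prior variance and Benjamini-Hochberg adjustment over 20576 genes. Calls required a change of 2-fold or more with an adjusted p below 0.05. Fold changes are on the log2(value + 1) scale, which understates those of low genes, and intervals are 95% intervals of the fit. The p-values measure the spread between these hearts. Alternatives were a pseudocount of 0.1, no filter, total count scaling, edgeR 4.0.16 (quasi-likelihood, TMM, with and without a filter) and DESeq2 1.42.0 on the recovered reads, limma-voom, the compared groups alone, library quality weights, a replicate block and each library left out. Leaving out the 2 libraries rich in *CT010467.1*, that gene as a covariate, and the genotype effects after MI or sham against baseline were added after seeing the data. The methods were tested on simulated data drawn for MI against sham in PKM2fl/fl, where limma recovered 94% of 1.5 log2 changes among 20444 genes. Every simulated gene had the same dispersion (spread between hearts beyond counting noise). The share therefore need not hold for collagen genes that vary more between hearts.

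The collagen genes and the other lists were chosen with earlier results of these data known. Values per library are given for the best known chains of each class in heart and for the called members with the 3 largest changes per direction. Other collagen genes are named where called, and from each other list up to 3 called genes with the smallest adjusted p. A gene that this would name is not reported here. *Acta2*, *Colgalt2*, *Itga10* and the genes overlapping collagen genes were named after their values were seen, as were uncalled collagen genes given with values. Same-numbered hearts did not deviate together, so replicate numbers were not used as pairs. Transcript lengths came from the canonical transcripts of a GENCODE annotation. Promoters and overlaps came from RefSeq on GRCm38.p6. All are descriptive.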

Additional observations from a re-analysis of the deposited data

Results flagged for a closer look

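For 3 collagen genes every PKM2-/- heart lay above every PKM2fl/fl heart after MI and below at baseline, a pattern that 3.75% of all genes had in one direction or the other. The genotype effect after MI minus that at baseline was 1.12 on the log2 scale for *Col5a3* (SE 0.22, adjusted p 0.165), 0.74 for *Col4a1* (SE 0.24, adjusted p 0.354) and 0.62 for *Col4a2* (SE 0.24, adjusted p 0.442). None passed the adjusted threshold in limma. *Col5a3* was called in DESeq2 (adjusted p 0.00525) and without PKM2fl/fl MI 3 (0.0264). *Col4a1* and *Col4a2* were at 11770 and 9467, and 9150 and 8258, in PKM2fl/fl baseline hearts against 6908 and 8749, and 6072 and 7594, in PKM2-/- ones.

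For *Col10a1* every PKM2-/- heart lay below the PKM2fl/fl hearts after sham and above them at baseline (difference of effects -1.78, SE 0.47, adjusted p 0.462). *Col20a1*, a low fibril-associated chain, lay the other way (0.80, SE 0.31, adjusted p 0.676), at 108 and 99.5 in PKM2fl/fl and 80.4 and 66.0 in PKM2-/- hearts at baseline, then 113, 114 and 83.3 against 117, 121 and 140 after sham. Such a pattern was seen in 3.25% of all genes.

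*Col4a1* was lower after sham than at baseline in every PKM2fl/fl heart (-0.27) and higher in every PKM2-/- heart (0.45), a difference of 0.73 (SE 0.24, adjusted p 0.583), where 2.31% of all genes had opposite directions in the genotypes. The baseline hearts, 2 per genotype, enter all of these differences, so they are not separate pieces of evidence.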

How the results depend on the processing

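Between MI and sham, the direction of the called collagen genes held under every alternative, with 15 of 22 (PKM2fl/fl) and 18 of 24 (PKM2-/-) called in all of them. Leaving out 1 library gave 19 to 24 and 21 to 25 calls. Total count scaling shifted the median of all genes by -0.17 and 0.52, and every called gene stayed on its side of that shift, with 16 higher and 3 lower in PKM2fl/fl and 25 and 2 in PKM2-/-. For sham against baseline in PKM2-/-, no filter, edgeR with its filter and limma-voom each gave 3 calls, and leaving out 1 library 1 to 5. In PKM2fl/fl the count was 2 with total count scaling, 7 with edgeR without a filter, 4 with DESeq2, 6 with library quality weights and 0 to 3 on leaving out 1 library. Between genotypes after sham, total count scaling, edgeR without a filter, DESeq2 and library quality weights each called 1, after MI edgeR without a filter called 1, and at baseline edgeR without a filter and the compared groups alone called 1 each. The interaction had 1 call in edgeR without a filter. The genotype effect after MI against baseline had 1 call with total count scaling, DESeq2, library quality weights and without the 2 libraries rich in *CT010467.1*, 2 with edgeR without a filter and 0 to 1 on leaving out 1 library. After sham against baseline it had 1 with edgeR without a filter. The cause was not tested.

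With the replicate number as a block, 22 and 24 collagen genes were called between MI and sham, and 4 for sham against baseline in PKM2-/- (*Col1a2* was lost). The block changed no other count. Deviations of same-numbered hearts correlated at -0.20 to 0.13, with 1 of 36 pairs over 0.1, and those of other hearts at -0.20 to 0.20, so the numbers do not pair the hearts.

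With 2 hearts per baseline group, and members at a few counts such as *Col9a2*, smaller changes were not detectable.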

Other observations

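These values were chosen after they were seen and carry no test beyond those named. *Col6a6*, an alternative to the α3 chain of type VI collagen, varied widely between hearts of 1 group. It was at 1346, 287 and 1486 normalized counts in PKM2fl/fl MI hearts, and at 648, 551 and 1096 in PKM2-/- sham hearts. At baseline it was at 350 and 330 in PKM2fl/fl and 847 and 1048 in PKM2-/- hearts. Its interaction was -1.77 (SE 0.80, interval -3.47 to -0.07, adjusted p 0.582 in limma).

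*Col6a5* was at 0 and 1.99 in PKM2fl/fl baseline hearts and at 21.2, 37.0 and 15.7 after sham. After MI it was at 12.4, 17.1 and 117, with MI 3 far above the others. In PKM2-/- hearts it was at 2.33 and 3.67, then 9.65, 18.3 and 8.63, then 8.11, 24.1 and 51.9. Sham and MI hearts overlapped in both genotypes.

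The ratio of *Col4a1* to *Col4a2* per kilobase was 1.17 to 1.31 at baseline, 1.23 to 1.37 after sham and 1.48 to 1.57 after MI in PKM2fl/fl hearts. PKM2-/- hearts had 1.16 to 1.17, 1.27 to 1.34 and 1.51 to 1.59. The MI hearts did not overlap with the others in either genotype. The ratio of *Col4a1* to *Col3a1* per kilobase was 1.89 to 2.35 at baseline in PKM2fl/fl hearts. It was 0.51 to 1.20 after sham and 0.26 to 0.34 after MI. PKM2-/- hearts had 1.44 to 2.01, 0.59 to 1.31 and 0.29 to 0.36. The sham hearts therefore already lay below the baseline hearts in both genotypes. These ratios were not tested.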
